A study of Mus musculus and Acomys cahirinus with 2 samples.

Results

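The 36 genes described here carry cells through mitosis, from the cyclins and kinases that start it to the proteins that split the cell. They were chosen by name, as every row of the 2 deposited gene lists whose symbol equals 1 of the 36 names, letter case ignored. All 36 had a row in the Mus list, out of 28624 symbols, and 32 had a row in the Acomys list, out of 24509. The 32 genes in both lists were among 15710 symbols that the lists share, and each had UMIs (unique molecular identifiers, which count captured RNA molecules) in both libraries. Cenpf, Knstrn, Tpx2 and Cdca8 had a row in the Mus list only.

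The study profiled single cells of ear skin from 2 rodents by 10x Genomics capture of RNA 3′ ends. A single library came from adult Acomys cahirinus, a spiny mouse that can regenerate the ear after wounding. It was set against 1 library from adult Mus musculus, the house mouse, which closes such wounds largely by scarring. Both samples are labelled day 0, while the title of the series calls the ears injured, and both libraries share age class, tissue and day; no treatment, genotype, strain or sex is used here. With 1 library for each species there were no replicates, so no difference between the species was tested. Species, animal, library and gene annotation cannot be told apart, and every interval below is a 95% interval for counting error only.

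Mitosis starts when the kinase Cdk1 is switched on by B-type cyclins, and it ends when the anaphase promoting complex marks those cyclins and securin for destruction. Between these steps the chromosomes condense, attach to a microtubule spindle through their kinetochores, and separate before the cell divides. In the epidermis, division takes place mainly in the basal layer and its appendages, and the layers above it differentiate and leave the cell cycle. Many mitotic genes share promoter elements, among them the cell cycle genes homology region (CHR) and the CCAAT box.

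RefSeq promoters of Mus musculus (build GRCm38.p6, 250 bases before to 50 bases after the start) were found for 30 of the 36 genes. Ccna2, Pbk, Aurkb, Tpx2, Kif20a and Stmn1 had no entry. The 30 genes had 31 start sites, and at 23 of these the bases just after the start were found in an annotated transcript of the gene. The CHR letters TTTGAA, searched on both strands, stood in 22 of the 30 windows (73.3%), against 18.1% of 27025 promoters of the same length. TTTGAA or its palindromic variant TTTAAA stood in 25 of the 30 (83.3%), against 27.8% of all promoters. CCAAT, also searched on both strands, stood in 25 (83.3%), against 37.9%. Either CHR form together with CCAAT stood in 24 of the 30 windows (80%), against 10.9% of all promoters. TTTAAA is its own reverse complement, no motif contains another, and a match is a stretch of letters, not a shown binding site. The windows of 4 genes are printed because these genes lie at the far ends of the comparison between the species: Cdkn3 and Ccnb2 had the highest ratios of Acomys to Mus, and Nusap1 and Cenpa were among the lowest. Capitals mark each of the searched motifs on either strand, so that a CHR on the opposite strand reads TTCAAA and a CCAAT box there reads ATTGG.
Cdkn3 (chr14:46760291-46760590, plus strand): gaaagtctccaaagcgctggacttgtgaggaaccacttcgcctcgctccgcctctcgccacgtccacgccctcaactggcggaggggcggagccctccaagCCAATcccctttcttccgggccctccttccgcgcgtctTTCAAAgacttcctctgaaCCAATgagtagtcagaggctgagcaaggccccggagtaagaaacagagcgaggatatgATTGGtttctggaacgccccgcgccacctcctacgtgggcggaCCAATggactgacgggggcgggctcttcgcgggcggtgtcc
Ccnb2 (chr9:70421505-70421804, minus strand): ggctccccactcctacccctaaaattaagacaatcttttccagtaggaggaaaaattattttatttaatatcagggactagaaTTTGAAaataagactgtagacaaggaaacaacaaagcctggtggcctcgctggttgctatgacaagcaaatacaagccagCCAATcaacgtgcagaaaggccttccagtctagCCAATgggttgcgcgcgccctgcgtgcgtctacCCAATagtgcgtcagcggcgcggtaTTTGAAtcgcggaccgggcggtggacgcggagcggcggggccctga
Nusap1 (chr2:119618048-119618347, plus strand): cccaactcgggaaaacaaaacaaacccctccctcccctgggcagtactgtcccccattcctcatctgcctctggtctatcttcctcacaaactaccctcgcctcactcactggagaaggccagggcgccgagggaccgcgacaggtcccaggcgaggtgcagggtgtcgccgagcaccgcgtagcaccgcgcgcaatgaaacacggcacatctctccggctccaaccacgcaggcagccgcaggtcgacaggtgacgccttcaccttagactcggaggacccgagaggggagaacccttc
Cenpa (chr5:30666636-30666935, plus strand): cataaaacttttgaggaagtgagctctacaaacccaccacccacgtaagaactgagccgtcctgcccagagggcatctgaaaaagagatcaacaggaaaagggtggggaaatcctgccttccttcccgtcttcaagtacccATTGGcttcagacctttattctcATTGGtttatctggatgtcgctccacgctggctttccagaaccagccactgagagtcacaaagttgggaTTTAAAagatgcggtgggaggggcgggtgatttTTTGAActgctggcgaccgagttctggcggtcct
Counting the start base as 1 and the base before it as -1, the Ccnb2 window held TTTGAA at 5 and at -167 and CCAAT at -21, -54 and -87. The Cdkn3 window held TTTGAA at -111 on the opposite strand and CCAAT at 10, -34, -92 and -149. The Cenpa window held TTTGAA at 17, TTTAAA at -17 and CCAAT at -86 and -109. The Nusap1 window held none of these letters. So windows with and without the motifs stood among the genes that were lower in Acomys, and windows with them stood at both ends. All 4 windows are Mus sequence, and no Acomys promoter was available to set beside them.

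After barcodes with few UMIs and likely doublets were left out, 4603 Acomys cells (median 7532 UMIs) and 6556 Mus cells (median 11760.5 UMIs) remained, and they shared 32 barcodes, where 40.9 would be shared by chance. Levels are given as CPM, the UMIs of a gene per 1000000 UMIs of the 15710 shared symbols. These symbols held 66.8% of the UMIs of Acomys cells and 62.1% of those of Mus cells. Cells were clustered without the mitosis genes, other mitotic genes and DNA replication genes, and clusters were named from marker lists. Basal keratinocyte-like cells numbered 1018 in Acomys and 3173 in Mus, suprabasal keratinocyte-like cells 1099 and 1537, follicle and appendage-like cells 1367 and 918, and sebocyte-like cells 354 and 295. A further 151 Acomys and 96 Mus cells had other names, such as endothelium-like, and 614 Acomys and 537 Mus cells stayed unnamed. Dividing cells still formed clusters of their own, all named basal-like: clusters 9 and 10 of Acomys and clusters 6 and 10 of Mus consisted mostly of cells rich in mitosis genes.

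With the clustering above, most UMIs of the mitosis genes lay in basal-like cells in both libraries. The level of these genes was lowest in suprabasal-like cells. Summed over the 32 shared genes, Acomys basal-like cells stood at 6479 CPM, and Acomys suprabasal-like, follicle-like and sebocyte-like cells at 265, 752 and 1590 CPM. Mus basal-like cells stood at 3832 CPM, and Mus suprabasal-like, follicle-like and sebocyte-like cells at 282, 1681 and 4637 CPM. The sum in basal-like over suprabasal-like cells was thus 24.4-fold in Acomys and 13.6-fold in Mus. In basal-like over sebocyte-like cells the sum was 4.07-fold in Acomys and 0.826-fold in Mus. That difference depended on the clustering: with genes that follow the mitosis genes from cell to cell also left out (called the stricter clustering), the values were 1.63 in Acomys and 1.28 in Mus. Over 16 ways of assigning the cells they ran between 1.63 and 4.95 in Acomys and between 0.730 and 1.31 in Mus. Basal-like cells held 76.1% of all UMIs of these genes in 22.1% of the Acomys cells, and 74.9% in 48.4% of the Mus cells.

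Gene by gene, all 32 were at least 2-fold higher in basal-like than in suprabasal-like cells of Acomys, where 27.2% of all genes with enough UMIs were, and all 32 were in Mus, where 25.2% of genes were. None was at least 2-fold lower in either (7.74% of all genes in Acomys, 8.39% in Mus). The ratios ran between 8.81 and 139 in Acomys, with a median of 30.3, and between 5.30 and 28.2 in Mus, with a median of 14.3. The value of 139 belonged to Aurkb and rested on 2 UMIs in suprabasal-like cells. Against follicle-like cells, 32 genes were at least 2-fold higher in Acomys basal-like cells (7.53% of all genes) and 22 in Mus basal-like cells (5.65% of all genes), and none was at least 2-fold lower (10.6% of all genes in each library). The Mus count was 14 with the stricter clustering, or 9 with unnamed clusters counted in the class with most markers. Against sebocyte-like cells, 31 were higher in Acomys (17% of all genes), Stmn1 being the exception, and none was at least 2-fold lower (6.82% of all genes). The Acomys count was 17 with the stricter clustering, or 20 with unnamed clusters counted in. In Mus none was at least 2-fold higher in basal-like than in sebocyte-like cells (10.5% of all genes), and Bub1 was at least 2-fold lower (12.5% of all genes). With the stricter clustering 1 was higher and none lower in Mus. The shares of all genes were not counted with the stricter clustering.

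**Figure D1:**
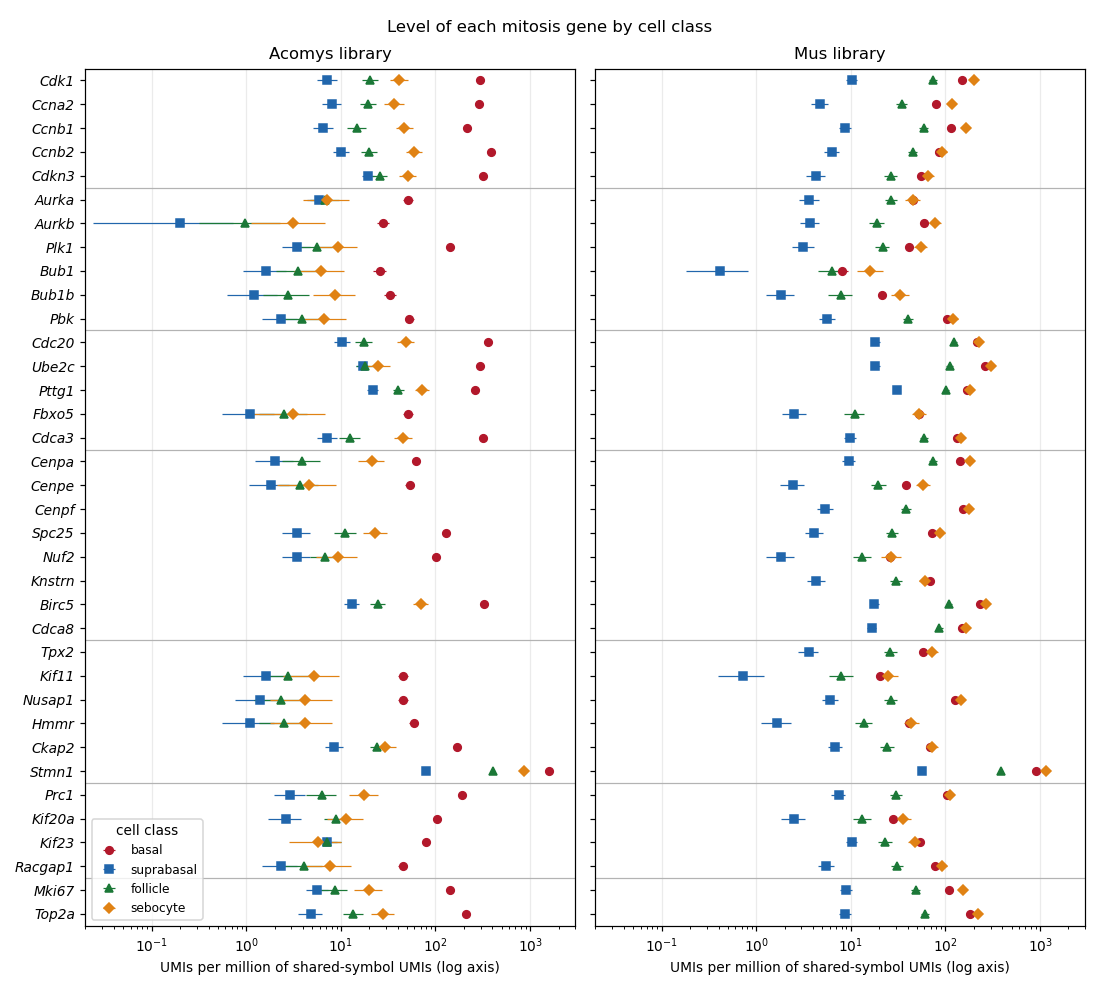
Level of each mitosis gene (CPM, log axis) in 4 cell classes, Acomys library on the left and Mus library on the right, 1 library each; bars are 95% Poisson intervals and grey lines separate the roles. In Acomys the basal-like points lie to the right of all others, while in Mus basal-like and sebocyte-like points lie together; Cenpf, Knstrn, Cdca8 and Tpx2 have a row only in Mus.

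Among the cyclins and their kinase, Acomys basal-like cells were higher throughout. Cdk1, the kinase that drives entry into mitosis, stood at 293 CPM in Acomys basal-like cells, beside 7.22, 20.5 and 41.3 CPM in suprabasal-like, follicle-like and sebocyte-like cells. In Mus it stood at 150 CPM in basal-like cells, beside 10.2, 74.4 and 200 CPM in the same other classes. Cdk1 was therefore 1.95-fold higher in Acomys than in Mus basal-like cells (1.84 to 2.07) and lower in each of the other 3 classes.
Ccnb2, a B-type cyclin that binds Cdk1, stood at 385 CPM in Acomys basal-like cells and 86.0 CPM in Mus basal-like cells, a ratio of 4.47 (4.21 to 4.75). Its other Acomys classes stood at 10.0 CPM (suprabasal-like), 19.9 CPM (follicle-like) and 59.3 CPM (sebocyte-like). Those classes stood at 6.28, 44.9 and 92.6 CPM in Mus. Ccna2, the A-type cyclin of S and G2 phase, stood at 289 CPM in Acomys, against 80.2 CPM in Mus basal-like cells (ratio 3.61, 3.38 to 3.85). The other B-type cyclin, Ccnb1, differed less, at 218 CPM in Acomys, against 114 CPM in Mus basal-like cells (1.91, 1.78 to 2.04).
Cdkn3, a phosphatase that acts on cyclin-dependent kinases, had the highest ratio of the 32 genes. It stood at 319 CPM in Acomys basal-like cells and 55.8 CPM in Mus basal-like cells, a ratio of 5.72 (5.34 to 6.14). It was also higher in Acomys suprabasal-like cells, at 19.6 CPM against 4.25 CPM in Mus (ratio 4.60, 3.54 to 6.03), and close to level in follicle-like cells, at 25.8 CPM in Acomys, against 26.3 CPM in Mus (0.980, 0.773 to 1.24). Together these 5 genes summed to 1504 CPM in Acomys basal-like cells and 486 CPM in Mus basal-like cells, a ratio of 3.09 (3.01 to 3.18).

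The mitotic kinases and checkpoint genes divided. Plk1, the polo-like kinase of mitotic entry and spindle poles, stood at 142 CPM in Acomys, against 41.0 CPM in Mus basal-like cells (3.47, 3.17 to 3.81). Bub1, a kinase of the spindle checkpoint, stood at 25.8 CPM in Acomys, against 8.05 CPM in Mus basal-like cells (3.20, 2.58 to 3.98). Aurkb, the kinase of the chromosomal passenger complex, went the other way, at 27.9 CPM in Acomys, against 59.5 CPM in Mus basal-like cells (0.469, 0.398 to 0.549).
Aurkb was lower in Acomys in each of the other classes as well, with 2 UMIs in 1099 suprabasal-like cells, 5 in 1367 follicle-like cells and 6 in 354 sebocyte-like cells. In Mus the same classes held 71, 118 and 202 UMIs. Aurka, the kinase of centrosomes and spindle poles, stood at 51.3 CPM in Acomys, against 45.8 CPM in Mus basal-like cells, and its interval of 0.985 to 1.27 spans equal levels. Bub1b, another checkpoint gene, had a basal ratio of 1.53 (1.30 to 1.81), and Pbk, a kinase active in mitosis, had a ratio of 0.507 (0.451 to 0.569).

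Of the 5 genes around the anaphase promoting complex, Cdc20, Ube2c, Pttg1 and Cdca3 were among the 8 members of highest summed level, and Fbxo5 was not. Cdc20, which activates the complex, stood at 363 CPM in Acomys basal-like cells, beside 10.3, 17.6 and 49.0 CPM in suprabasal-like, follicle-like and sebocyte-like cells. In Mus it stood at 218 CPM in basal-like cells, beside 18.2, 125 and 225 CPM. The basal ratio was 1.67 (1.59 to 1.75), and the ratio in follicle-like cells was 0.141 (0.112 to 0.175).
Ube2c, the ubiquitin-conjugating enzyme of the complex, was nearly level between basal-like cells, at 295 CPM in Acomys, against 261 CPM in Mus (1.13, 1.07 to 1.19). In sebocyte-like cells it stood at 24.8 CPM in Acomys, against 303 CPM in Mus. Pttg1, or securin, which holds the sister chromatids' protease in check, stood at 259 CPM in Acomys, against 169 CPM in Mus basal-like cells (1.53, 1.44 to 1.62).
Pttg1 was also the least restricted of these genes, with 21.8 CPM in Acomys, against 30.7 CPM in Mus suprabasal-like cells. Cdca3, a regulator of mitotic entry that the complex itself degrades, stood at 315 CPM in Acomys, against 132 CPM in Mus basal-like cells (2.39, 2.26 to 2.53). Fbxo5, an inhibitor of the complex, stood at 51.3 CPM in Acomys, against 53.0 CPM in Mus basal-like cells, with an interval of 0.852 to 1.09 that spans equal levels.

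Centromere and kinetochore genes held both high and low ratios. Cenpa, the histone H3 variant that marks centromeres, stood at 61.8 CPM in Acomys basal-like cells and 142 CPM in Mus basal-like cells (0.436, 0.391 to 0.485). In the other classes Cenpa stood at 2.01 CPM (suprabasal-like), 3.90 CPM (follicle-like) and 21.2 CPM (sebocyte-like) in Acomys, against 9.49, 73.6 and 184 CPM in Mus. Cenpa was thus lower in Acomys in all 4 classes.
Nuf2 and Spc25, both subunits of the Ndc80 complex that holds microtubules at kinetochores, were higher in Acomys basal-like cells. Nuf2 stood at 102 CPM in Acomys, against 26.1 CPM in Mus basal-like cells (3.90, 3.48 to 4.37). Spc25 stood at 130 CPM in Acomys, against 72.0 CPM in Mus basal-like cells (1.80, 1.66 to 1.96). Cenpe, a kinetochore motor, had a basal ratio of 1.38 (1.21 to 1.57).
Birc5, or survivin, a partner of Aurkb in the chromosomal passenger complex, stood at 325 CPM in Acomys, against 232 CPM in Mus basal-like cells (1.40, 1.33 to 1.48). The passenger complex member Cdca8 (borealin) and the kinetochore genes Cenpf and Knstrn could be read in Mus only. Cdca8 stood at 149 CPM in Mus basal-like, 16.7 CPM in suprabasal-like, 86.1 CPM in follicle-like and 166 CPM in sebocyte-like cells. Cenpf stood at 153, 5.34, 38.2 and 177 CPM and Knstrn at 68.6, 4.30, 30.3 and 61.4 CPM in the same 4 Mus classes. All 3 thus had the class pattern of the shared genes.

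Of the spindle genes, Stmn1 had by far the most UMIs and the widest spread over cells. Stmn1 (stathmin), which makes microtubules less stable and is not limited to mitosis, held 24.6% of the UMIs of the 32 genes in Acomys and 23.7% in Mus basal-like cells. It stood at 1596 CPM in Acomys, against 909 CPM in Mus basal-like cells (1.75, 1.71 to 1.80). In Acomys it had the smallest ratio of basal-like to follicle-like and to sebocyte-like cells of the 32 genes (3.93 and 1.86). It stood at 406 CPM in Acomys, against 392 CPM in Mus follicle-like cells, and at 858 and 1168 CPM in sebocyte-like cells.
At least 1 Stmn1 UMI was found in 89.3% of Acomys and 84.4% of Mus sebocyte-like cells. Nusap1, which bundles spindle microtubules, had the lowest basal ratio of the 32 genes, at 45.8 CPM in Acomys, against 127 CPM in Mus (0.362, 0.319 to 0.409). Its follicle-like levels were 2.34 CPM in Acomys, against 26.5 CPM in Mus, and its sebocyte-like levels 4.13 and 147 CPM.
Kif11, the motor that keeps the spindle bipolar, had a basal ratio of 2.24 (1.93 to 2.60), and Ckap2, a protein of spindle poles, of 2.47 (2.28 to 2.67). Hmmr, a spindle-associated protein, had a basal ratio of 1.43 (1.26 to 1.61). Tpx2, which activates Aurka on the spindle, could be read in Mus only, at 57.8 CPM in basal-like, 3.58 CPM in suprabasal-like, 26.1 CPM in follicle-like and 72.6 CPM in sebocyte-like cells.

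The genes of the central spindle and cytokinesis did not move as a block either. Kif20a, a motor of the central spindle, stood at 104 CPM in Acomys, against 28.1 CPM in Mus basal-like cells (3.72, 3.33 to 4.15). Prc1, which crosslinks central spindle microtubules, stood at 191 CPM in Acomys, against 103 CPM in Mus basal-like cells (1.84, 1.72 to 1.98). Kif23 and Racgap1 form 1 complex, centralspindlin, yet Kif23 had a basal ratio of 1.47 (1.32 to 1.63) and Racgap1 of 0.574 (0.505 to 0.652).
Mki67 and Top2a, which coat and untangle chromosomes, had modest basal ratios. Top2a stood at 210 CPM in Acomys basal-like cells, beside 4.82, 13.5 and 27.9 CPM in suprabasal-like, follicle-like and sebocyte-like cells. In Mus it stood at 183 CPM in basal-like cells, beside 8.71, 61.2 and 222 CPM. Its basal ratio was 1.14 (1.08 to 1.22). The proliferation marker Mki67 stood at 142 CPM in Acomys, against 110 CPM in Mus basal-like cells (1.29, 1.19 to 1.39), against 19.6 CPM in Acomys, against 152 CPM in Mus sebocyte-like cells.

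Set side by side across the species, the summed level of the 32 genes in basal-like cells was 1.69-fold higher in Acomys (1.67 to 1.71). Their median log2 ratio was 0.68 in basal-like cells, beside a median of -0.47 over the 10849 genes with at least 10 UMIs there. At least 2-fold higher in Acomys were 10 of the 32 genes (Ccnb2, Ccna2, Cdkn3, Plk1, Bub1, Kif11, Kif20a, Ckap2, Cdca3 and Nuf2), where 16.8% of all genes were. At least 2-fold lower were 3 (Cenpa, Nusap1 and Aurkb), where 39.2% of all genes were.
The size of the basal ratio changed with the clustering and with the UMI minimum. It was 1.15 with a minimum of 1000 UMIs and 1.09 with the higher minimum in both libraries. Under the stricter clustering it was 1.08, with 134 of the 362 Acomys and 104 of the 605 Mus cells rich in mitosis genes in unnamed clusters. Over all alternatives tried it lay between 1.08 and 1.88. Over all kept cells, where no class is used, the sums were 2016 CPM in Acomys, against 2142 CPM in Mus, a ratio of 0.941 (0.932 to 0.951). Of these UMIs, Stmn1 held 30.9% in Acomys (623 CPM) and 23.8% in Mus (509 CPM). The ratio over all kept cells without Stmn1 was not computed.
Single genes moved with the assignment as well, and Stmn1 ran between 1.04 and 1.75 and Kif11 between 1.35 and 2.31. Across the 16 ways, 7 of the 10 higher genes stayed at least 2-fold higher in Acomys basal-like cells in each: Ccnb2 (ratios of 2.86 to 4.63), Ccna2 (2.32 to 3.65), Cdkn3 (3.98 to 5.94), Plk1 (2.30 to 3.64), Bub1 (2.10 to 3.31), Kif20a (2.12 to 3.87) and Nuf2 (2.48 to 3.99). Likewise 3 genes were at least 2-fold lower in each: Cenpa (0.312 to 0.453), Nusap1 (0.227 to 0.368) and Aurkb (0.267 to 0.491). These 10 genes were singled out because they stayed past 2-fold, after their values were seen, and all 16 ways use the same 2 libraries. The share of all genes that stayed past 2-fold in each of the 16 ways was not counted. These counts therefore have no background to be read against.
The same genes lay at the ends over all kept cells, where Cdkn3 (95.4 CPM in Acomys, 31.3 CPM in Mus) and Ccnb2 (106 CPM in Acomys, 48.0 CPM in Mus) were at least 2-fold higher (18.1% of all genes). There 6 genes were at least 2-fold lower (40.7% of all genes), namely Cenpa, Nusap1, Pbk, Fbxo5, Aurkb and Racgap1. As a share of the UMIs of the 32 genes in all kept cells, Cdkn3 held 4.73% in Acomys and 1.46% in Mus, and Cenpa held 0.937% in Acomys and 3.77% in Mus. The libraries were counted on different gene lists, and the part of the gene models in the ratio of a single gene was not tested.

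**Figure D2:**
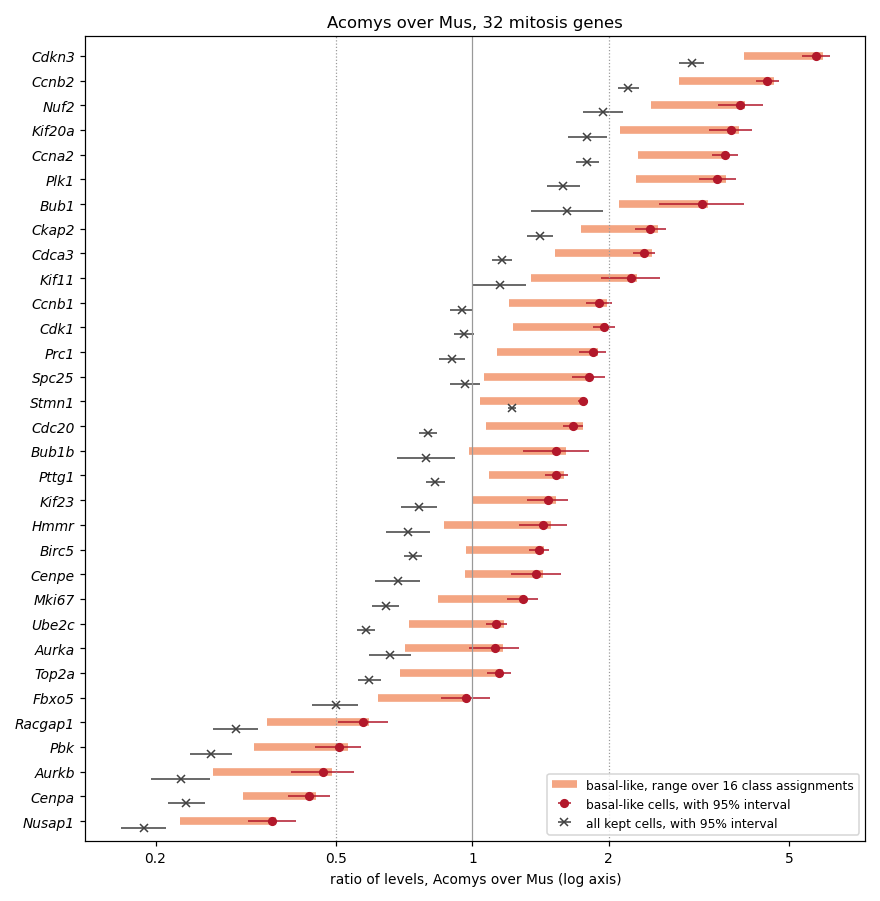
Ratio of levels, Acomys over Mus (log axis), for the 32 genes in both lists; red points are basal-like cells and grey crosses all kept cells with 95% intervals for counting error, and pale bars span the basal-like ratio over 16 class assignments. Cdkn3 and Ccnb2 stand at the top and Nusap1, Cenpa and Aurkb at the bottom in both readings, and each gene's cross lies to the left of its point.

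In the other 3 epidermal and appendage classes the sum was lower in Acomys, and in the remaining cells it was higher. Unnamed clusters stood at 1076 CPM in Acomys, against 437 CPM in Mus (2.46, 2.32 to 2.61). Cells with other names stood at 584 CPM in Acomys, against 471 CPM in Mus (1.24, with a lower bound of 1.03). In unnamed clusters the spindle genes, which include Stmn1, stood at 711 CPM in Acomys, against 151 CPM in Mus (4.70). Ratios there were 2.86 for the cyclin group, 1.52 for centromere and kinetochore genes and 1.16 for chromosome genes. They were 0.880 for kinase and checkpoint genes, 0.824 for anaphase promoting complex genes and 0.680 for central spindle genes. In cells with other names the spindle genes had a ratio of 1.78 and the other groups 0.387 to 2.26. In suprabasal-like cells the sum was 265 CPM in Acomys, against 282 CPM in Mus (0.939, 0.896 to 0.984), a difference that turned round under other scalings (1.03 with all genes of each library as the total). There 3 genes were at least 2-fold higher in Acomys (16.2% of all genes), Cdkn3, Bub1 and Kif11, and 7 were lower (42.2% of all genes).
In follicle-like cells the sum was 752 CPM in Acomys, against 1681 CPM in Mus (0.447, 0.431 to 0.464), with 0 genes at least 2-fold higher (16.6% of all genes) and 25 lower (40.4% of all genes). A Mus cluster of 85 cells led by Krt6a, with a median of 36087 UMIs, held 26 of the 43 Mus follicle-like cells rich in mitosis genes. Without that cluster the Mus sum was 1022 CPM, the ratio 0.736 (0.705 to 0.768), and 12 genes were at least 2-fold lower and 1 higher. The share of all genes was not counted without that cluster, so these 2 counts have no background. Whether these deep barcodes hold more than 1 cell was not tested.
In sebocyte-like cells the sum was 1590 CPM in Acomys, against 4637 CPM in Mus (0.343, 0.330 to 0.357), with 0 genes higher (12.3% of all genes) and 29 lower (45.8% of all genes). Most of these UMIs came from the larger sebocyte-like cluster of each library, both marked by Mgst1, Pparg and Acsbg1: 1771 CPM in 316 Acomys cells and 6955 CPM in 207 Mus cells. The smaller clusters, which also carried Fasn, Elovl3 and Cidea of lipid synthesis and storage, stood at 440 CPM in 38 Acomys cells and 464 CPM in 88 Mus cells. With the stricter clustering the sebocyte-like ratio was 0.851, with 9 genes lower and 2 higher (Ccnb2 and Cdkn3). The share of all genes was not counted with that clustering. There, 9.79% of Acomys and 16.1% of Mus sebocyte-like cells were rich in mitosis genes by the count described next.

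To count dividing cells without depth, each cell was thinned to 2500 UMIs and called rich in mitosis genes when at least 5 of the 32 had a UMI. Over all kept cells, 362 of 4603 Acomys cells (7.86%, 7.10 to 8.68) and 605 of 6556 Mus cells (9.23%, 8.54 to 9.95) were rich. Without thinning the shares were 14.6% in Acomys and 22.1% in Mus over all cells, 419 of 1018 and 825 of 3173 in basal-like cells, and 16.2% and 16.5% in the suprabasal-like cluster with Lor, a gene of the cornified layer, among its 10 leading genes. The intervals of the thinned shares overlap, while those of the unthinned shares do not. The order depended on the settings: with a threshold of 8 genes Acomys was lower, at 5.89% (5.22 to 6.61) against 7.61% in Mus (6.98 to 8.28), and with a threshold of 3 genes it was not, at 13.0% (12.1 to 14.0) against 12.6% in Mus (11.8 to 13.5). With the higher UMI minimum in both libraries the order also turned, at 9.49% in Acomys (8.54 to 10.5) against 9.23% in Mus (8.54 to 9.95). No difference between the species was read from the whole libraries.
Near the threshold, with 4 or 5 genes by the thinned count, lay 106 Acomys and 108 Mus cells. The richest cells had UMIs of 25 of the 32 genes in Acomys and 23 in Mus. Rich cells were 31.3% of Acomys and 15.1% of Mus basal-like cells, 0.658% and 4.68% of follicle-like cells, and 7.63% and 26.8% of sebocyte-like cells. With unnamed clusters counted in the class with most markers, they were 20.4% of Acomys and 13.2% of Mus basal-like cells. Of all rich cells, 88.1% were basal-like in Acomys and 79.2% in Mus. With the stricter clustering these shares were 43.9% in Acomys and 66.3% in Mus, or 80.7% and 82.5% with unnamed clusters counted in, so their order turned round.
Suprabasal-like cells held 1 rich cell in each library, of 1099 in Acomys and of 1537 in Mus. In that cluster 0 of 136 Acomys cells (median 21374 UMIs) were rich, which allows a share of up to 2.21%. In its Mus counterpart, also with Lor among the leading genes, 0 of 127 cells (median 19392 UMIs) were rich, which allows up to 2.36%. At least 1 mitosis gene UMI was nevertheless found in 35.3% of those Acomys and 38.6% of those Mus cells, so a lone UMI did not separate dividing cells from terminal ones.
With the stricter clustering and unnamed clusters counted in the class with most markers, rich cells were 17.5% of Acomys and 13.5% of Mus basal-like cells. Rich cells thus stayed a larger share of basal-like cells in Acomys, by a smaller margin.

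**Figure D3:**
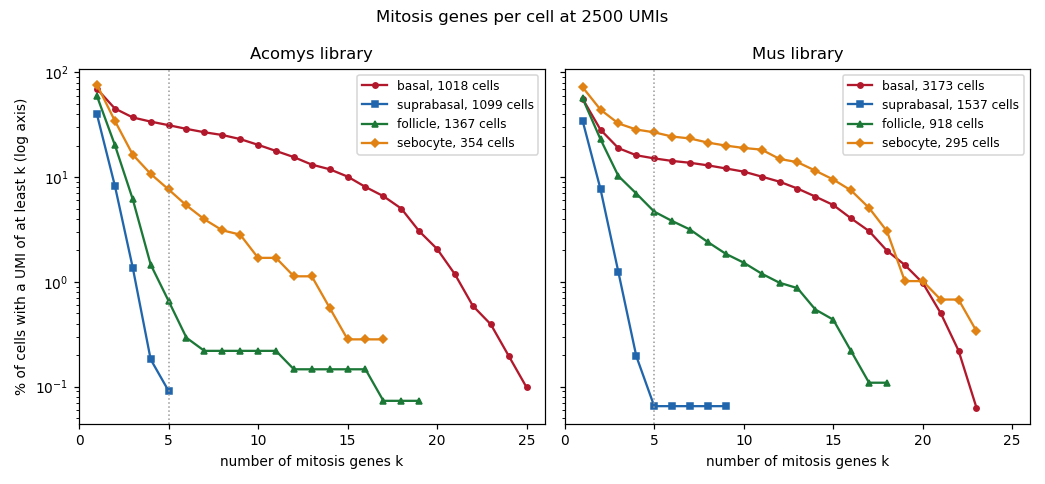
Percent of cells with a UMI of at least k of the 32 mitosis genes after thinning each cell to 2500 UMIs (log axis), by cell class, Acomys library on the left and Mus library on the right; the dotted line marks the threshold of 5 genes. Basal-like and, in Mus, sebocyte-like curves level off and reach beyond 20 genes, while suprabasal-like curves drop below 0.1% at 5 genes in both libraries.

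Free RNA in the suspension also carried the mitosis genes. Barcodes with 1 to 10 UMIs held 1731 UMIs of the 32 genes in Acomys (2281 CPM) and 1805 in Mus (2216 CPM). These levels lay above those of suprabasal-like and follicle-like cells in both libraries and of Acomys sebocyte-like cells (1590 CPM). They also lay above the levels over all kept cells (2016 CPM in Acomys, 2142 CPM in Mus). With 10% of each class taken as free RNA and subtracted, the sum in basal-like over suprabasal-like cells was 98.5-fold in Acomys and 46.7-fold in Mus. How much of the levels in the classes below the free RNA level, and of their species ratios, came from free RNA was not tested.

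Cells rich in mitosis genes differed from other basal-like cells in further readouts. The 319 rich Acomys basal-like cells had a median of 11411 UMIs, against 8573 UMIs in the 310 Acomys basal-like cells with no mitosis gene UMI. The 479 rich Mus basal-like cells had a median of 16562 UMIs, against 10624.5 UMIs in the 1396 Mus cells with none. At equal depth of 2500 UMIs, rich cells still showed more genes, with medians of 1002 against 933 in Acomys and 1089 against 990 in Mus. These gene numbers include the mitosis genes, of which rich cells had at least 5 and the other cells none. Part of that difference was therefore set by the selection.
The cyclin D genes Ccnd1 and Ccnd2, which act in G1, were lower in rich cells than in basal-like cells with no mitosis gene UMI. Ccnd3 was not measured in these cells. Ccnd2 stood at 178 CPM in rich cells and 243 CPM in cells with none in Acomys, and at 120 CPM in rich cells and 926 CPM in cells with none in Mus. Basal-like cells between these, with 1 to 4 of the genes, stood at 260 CPM in Acomys, against 826 CPM in Mus. Ccnd1 stood at 80.4 and 174 CPM in the same Acomys cells and at 142 and 233 CPM in the same Mus cells. Cdkn1a, which encodes the Cdk inhibitor p21, stood at 300 CPM in rich Mus cells and 115 CPM in Mus cells with none, and it had 5 and 7 UMIs in these Acomys cells, too few to compare.
Keratins were abundant in rich cells as well. Krt5, the keratin of the basal layer, stood at 9544 CPM in rich Acomys cells, 15080 CPM in those with 1 to 4 of the genes and 16808 CPM in those with none. In Mus it stood at 7841, 9460 and 9972 CPM in the same kinds of cells. Krt1, which marks the step into the suprabasal layers, stood at 820 CPM in rich cells and 1564 CPM in cells with none in Acomys, and at 230 and 490 CPM in those Mus cells. Both keratins thus stood at lower CPM in rich cells of both libraries.

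DNA replication precedes mitosis, and the genes differed in how often their UMIs lay in cells that also carried at least 5 DNA replication genes. Such replication-rich cells were 13.5% of Acomys and 14.1% of Mus kept cells. Among rich basal-like cells 53.9% were replication-rich in Acomys and 64.9% in Mus, against 8.71% and 6.09% of basal-like cells with no mitosis gene UMI. The Acomys list has no Pcna row and Rrm2 had 12 UMIs in all Acomys basal-like cells, so shares were compared between genes within a library and not between the species.
Lowest in Acomys were Cenpa (14.2% of its thinned UMIs in replication-rich cells), Cenpe (23.8%), Ccnb1 (24.1%) and Pttg1 (25.4%). Highest in Acomys were Top2a (59.2%), Nusap1 (57.4%), Fbxo5 (56.2%) and Spc25 (56.0%). In Mus the lowest of the 32 were Pttg1 (32.5%), Cdkn3 (40.5%) and Cdc20 (41.0%), and the highest were Fbxo5 (75.1%), Spc25 (72.0%), Pbk (71.1%) and Top2a (69.0%).
The order of the 32 genes was alike in the libraries, with Pearson's r of 0.745 and Spearman's rho of 0.750 across genes, which are not independent since they share cells. In both libraries the chromosome and Ndc80-complex genes Top2a and Spc25 lay at the replication end, and securin and the cyclin Ccnb1 at the other. Ccna2, the cyclin of S and G2 phase, had a higher share than Ccnb1 in each library, at 54.0% against 24.1% in Acomys and 58.8% against 44.7% in Mus.

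**Figure D4:**
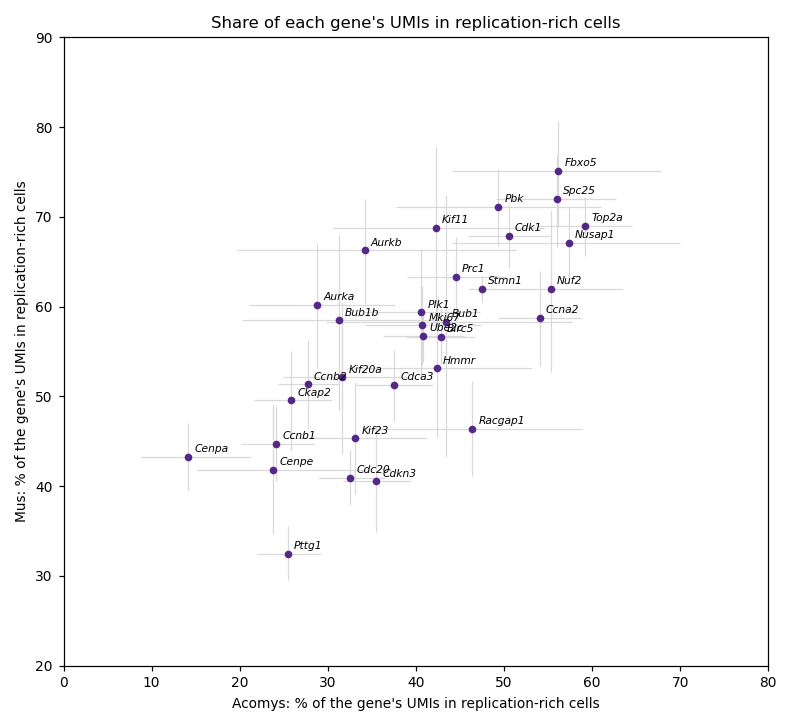
Percent of each gene's UMIs, after thinning to 2500 UMIs per cell, that lay in cells with at least 5 DNA replication genes, Acomys on the horizontal axis and Mus on the vertical axis; bars are 95% intervals for counting error. Pttg1, Cenpe, Ccnb1 and Cenpa lie at the lower left and Top2a, Spc25 and Fbxo5 at the upper right.

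The genes that most resembled the summed mitosis genes from cell to cell were sought among shared symbols with at least 200 UMIs. In Acomys, over 4603 cells, Hmgb2, a chromatin protein, came highest with r of 0.573, followed by Cks2, a Cdk1 subunit (0.566), and Apold1 (0.552). In Mus, over 6556 cells, Spc24, the partner of Spc25, came highest with r of 0.733, followed by Cks2 (0.702) and Hmgb2 (0.699). Hmgb2, Cks2 and the chromosome motor Kif22 (0.517 in Acomys and 0.660 in Mus) were among the highest 10 in both libraries.
The Acomys 10 were completed by Ptn, a secreted growth factor (0.527), the Ndc80 complex subunit Ndc80 (0.526), Dlgap5 (0.525), Cenpw (0.525), the nucleosome-binding Hmgn5 (0.514) and Kif20b (0.508). The Mus 10 were completed by the condensin subunits Smc2 (0.688) and Smc4 (0.646), Cenpm (0.678), the cytokinesis scaffold Anln (0.664), the histone chaperone Asf1b (0.659) and the thymidine kinase Tk1 (0.646). The correlations share depth between genes of a cell and are given as descriptions.

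Further lists of cell cycle genes were set against the same background in basal-like cells (16.8% of all genes at least 2-fold higher, 39.2% lower). Of 71 other mitosis genes, 22 were higher by at least 2-fold in Acomys and 14 lower, and their sum ratio was 1.39 (1.37 to 1.40). Of 52 DNA replication genes, 3 were higher and 9 lower, with a sum ratio of 1.10 (1.08 to 1.12). Of 22 G1 cyclins, Cdk inhibitors and pocket protein genes, 2 were higher and 9 lower, with a sum ratio of 0.784 (0.767 to 0.801).
Among other mitosis genes, Hmgb2 stood at 2167 CPM in Acomys, against 1067 CPM in Mus basal-like cells, the tubulin Tubb4b at 1118 and 1062 CPM, and Cks2 at 490 and 368 CPM. Ube2s, which elongates ubiquitin chains for the anaphase promoting complex, stood at 84.4 CPM in Acomys, against 487 CPM in Mus (0.173, 0.158 to 0.189), unlike Ube2c of the same complex. Of the replication genes, Tk1 stood at 205 CPM in Acomys, against 108 CPM in Mus and the DNA ligase Lig1 at 197 and 77.7 CPM.
Top1, a topoisomerase, stood at 166 CPM in Acomys, against 144 CPM in Mus, and the dUTPase gene Dut at 167 and 137 CPM. Of the G1 genes, Ccnd2 stood at 225 CPM in Acomys, against 715 CPM in Mus (0.314, 0.297 to 0.332), Ccnd1 at 142 and 212 CPM, and their kinase partner Cdk4 at 398 and 259 CPM. Cdkn2d, a Cdk4 inhibitor, stood at 204 CPM in Acomys, against 147 CPM in Mus. The median log2 ratios were 0.42 for other mitosis genes, 0.06 for replication genes and -0.68 for G1 genes, beside -0.47 over all genes. Over all kept cells the sum ratios were 0.793 for other mitosis genes, 0.841 for replication genes and 0.604 for G1 genes, so the first 2 lists stood on opposite sides of equality in basal-like cells and in all cells. Other mitosis genes had ratios of 0.598 in suprabasal-like, 0.579 in follicle-like and 0.366 in sebocyte-like cells. The basal-like values of these lists were not recomputed with the stricter clustering.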

How the data were processed

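The authors deposited UMI counts per gene and barcode for 1 Acomys and 1 Mus library. The submitters' processing notes list Cell Ranger 2.2.0 and mm10 without their roles, and for the Acomys gene list the build was not given in the sources used here. No columns were left unused (0). Barcodes were kept above 0.1 of the 99th percentile of the 3000 largest, with at least 200 genes and at most 20% mitochondrial UMIs. Mitochondrial genes were found by a symbol prefix (MT-), and this limit removed 0 Acomys and 4 Mus barcodes. With a minimum of 1000 UMIs it removed 0 and 299. Whether the prefix finds the Acomys mitochondrial genes was not tested. Likely doublets, scored against simulated pairs, were removed (183 Acomys and 386 Mus, at 0.8% per 1000 cells); 17 and 51 of these held at least 5 of the genes. The library totals were 71042559 UMIs in Acomys and 130039670 UMIs in Mus, and each library was clustered alone (2000 variable genes without cell cycle genes, 30 components, 20 neighbours, Leiden resolution 1, leidenalg 0.10.2, igraph 0.11.9), giving 20 Acomys and 19 Mus clusters. A cluster was named from at least 3 markers found in at least 20% of its cells at 1.5-fold. UMIs were summed per class and scaled to 1000000 shared-symbol UMIs. Ratios carry exact conditional binomial intervals, levels exact Poisson intervals and shares exact Clopper-Pearson intervals (scipy 1.17.1), all for counting error only. A count of 0 is read against 3 counts. Ratios were computed on all shared symbols with at least 10 UMIs, and the computation was tested on simulated data.

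Chosen for fuller values were the 8 genes with highest summed CPM. Those with a basal ratio of at least 4 or at most 0.25 were chosen as well. After their values were seen, those at least 2-fold apart in every class assignment were added. Levels in all 4 classes are not printed for each of these genes. The members, the other gene lists and the marker lists were chosen with earlier results of these data known. The marker thresholds, the threshold of 5 replication genes, the clustering without 729 Acomys and 1275 Mus genes that follow the members (r of at least 0.1), the sum without Stmn1, the basal over sebocyte-like values under 16 assignments (8 clusterings, each with unnamed clusters left out or counted in) and the follicle-like value without 1 Mus cluster were chosen after the data were seen. Names of rebuilt clusters can differ from the study's own. Promoters came from RefSeq tables of build GRCm38.p6.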

Additional observations from a re-analysis of the deposited data

Results flagged for a closer look

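The species ratio of the summed mitosis genes pointed in opposite directions between cell classes: Acomys over Mus was 1.69 in basal-like cells but 0.939 in suprabasal-like, 0.447 in follicle-like and 0.343 in sebocyte-like cells. With the stricter clustering these ratios were 1.08, 1.04, 0.521 and 0.851, so the suprabasal-like direction turned. It also turned with a mean over cells (1.02) and with all genes of each library as the total (1.03). Within the libraries, the sum in basal-like over sebocyte-like cells was 4.07 in Acomys and 0.826 in Mus. With the stricter clustering these were 1.63 in Acomys and 1.28 in Mus, so the Mus direction turned and the libraries came closer. With 1 library for each species none of these differences was tested.

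Signal also lay in data outside the comparisons. Barcodes of 1 to 10 UMIs, which are not cells, held 1731 UMIs of the 32 shared genes in Acomys and 1805 in Mus. The 4 genes with a row only in the Mus list stood, over all Mus cells, at 78.9 CPM for Cenpf, 37.3 CPM for Knstrn, 32.1 CPM for Tpx2 and 86.8 CPM for Cdca8. These genes were not analysed here in Acomys.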

How the results depend on the processing

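Every value rests on 1 library for each species, so animals, libraries and species cannot be told apart, and depth limits genes with few UMIs, such as Aurkb in Acomys suprabasal-like cells. No paired analysis was possible because each species has 1 library. In order, sums of the 32 genes are given as the basal-like, suprabasal-like, follicle-like and sebocyte-like ratio of Acomys to Mus where they moved. With a minimum of 1000 UMIs the basal-like ratio was 1.15, the follicle-like 0.363 and the sebocyte-like 0.514; basal over suprabasal was 15.5 in Acomys and 13.0 in Mus; 5 genes were 2-fold lower in basal-like cells. With the higher of both minimums these were 1.09, 0.882 (suprabasal-like), 0.300 (sebocyte-like) and 16.8 in Acomys, with 5 genes lower. Without doublet removal the suprabasal-like ratio was 0.891 and basal over suprabasal 22.3 in Acomys and 11.7 in Mus. With cell cycle genes kept in the clustering, the ratios were 1.62, 0.429 (follicle-like) and 0.320 (sebocyte-like), and 14.4 in Mus. Resolution 0.5 gave 1.72, 0.410 (follicle-like) and 14.0 in Mus. Resolution 2 gave 1.45, 0.984, 0.667 and 20.1 in Acomys, with 5 lower. Subtracting 10% free RNA gave 1.74, 0.826, 0.355 and 0.308, and 98.5 in Acomys and 46.7 in Mus. A mean over cells gave 1.88, 1.02 (the direction turned), 0.705 and 0.365, and 18.0 and 9.76. Scaling to all genes of each library gave 1.79, 1.03 (turned), 0.481 and 0.360, and 22.3 and 12.9; it moved the median log2 ratio of all genes in basal-like cells to -0.39. Counting unnamed clusters in gave 1.43, and 18.3 and 12, with 5 lower. With the settings used above, 3 genes were at least 2-fold lower in basal-like cells, where 39.2% of all genes were. The share of all genes was not counted under the alternatives, so these counts of lower genes have no background.

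Of the choices made after the data were seen, the stricter clustering gave 1.08, 1.04 (turned), 0.521 and 0.851, and 13.9 in Acomys, with 5 lower; with unnamed clusters counted in it gave 1.27, 1.04 (turned), 0.540 and 0.851, and 14.5 and 11.9, with 5 lower. Without Stmn1 the sums gave 1.67, 0.818, 0.268 and 0.211, and 26.4 and 12.9. Without the Krt6a-led Mus cluster the follicle-like ratio was 0.736. The share of rich cells was 6.85% in Acomys and 8.34% in Mus with a minimum of 1000 UMIs. With the higher minimum it was 9.49% in Acomys and 9.23% in Mus, so the order turned. It was 5.06% and 6.48% when thinned to 1000 UMIs, and 14.6% and 22.1% without thinning. For 3 genes it was 13.0% and 12.6%, and for 8 genes 5.89% and 7.61%. The causes were not tested. The basal-like, follicle-like and sebocyte-like ratios kept their direction under each alternative. The count of genes at least 2-fold higher in basal-like cells, 10, was 7 with a minimum of 1000 UMIs, with the higher minimum and with the stricter clustering, and 14 with a mean over cells. The share of all genes was not counted under these alternatives. Basal over sebocyte-like cells in Mus, 0.826, was 1.31 with a minimum of 1000 UMIs and 1.28 with the stricter clustering, both turned.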
